A study of Mus musculus with 6 samples.

Results

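Prostaglandin genes were examined in mature adipocytes (AC) and in dedifferentiated fat (DFAT) cells by the values of 6 Affymetrix arrays, 3 of each group. The rule named 10 genes, which encode the cyclooxygenases Ptgs1 and Ptgs2, the synthases Ptges, Ptgds and Ptgis, the receptors Ptger2, Ptger3, Ptger4 and Ptgfr, and the degrading enzyme Hpgd. Of these, 9 had probe sets that the platform annotation assigned to them alone, 20 probe sets among the 45037 tested, and the series had 18193 such genes in all. Ptgs1 had no probe set under its symbol, so its expression was not analysed here. AC were primary cells isolated from mouse fat tissue. DFAT cells were a line made by ceiling culture, in which floating adipocytes attach, lose their fat and divide. Its donors were mice with a GFP transgene, and nothing says whether those of AC carried it too. The strain, age, sex and fat depot of neither group are given in the sources used here. No treatment of either group is named in these sources. The comparison therefore sets isolated primary cells against a cultured line, and dedifferentiation, culture and mouse origin cannot be told apart.

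Prostaglandins are short-lived lipid signals. Phospholipases free arachidonic acid from lipids, cyclooxygenases turn it into prostaglandin H2, and terminal synthases make from it prostaglandins E2, D2, F2α and I2 and thromboxane. Each acts on its own G protein-coupled receptors, of which EP2 and EP4 raise cyclic AMP and EP3 lowers it, and 15-hydroxyprostaglandin dehydrogenase starts their breakdown. In fat tissue prostaglandin E2 is known to restrain lipolysis through EP3, and prostaglandin F2α to hold back adipocyte differentiation through the FP receptor.

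Of the 9 measured genes, 2 rose and 6 were called lower in DFAT cells, and 1, Ptgis, did not pass the test. Ptgs2 and Ptger4 were the genes that rose. Ptges, Ptgds, Ptger3, Ptgfr and Hpgd fell, and Ptger2 was called lower from values at background level in both groups. Over all genes with 1 probe set each, 22.6% were called higher and 23.8% lower, so the share of these genes called, 8 of 9, stands against 46.4% overall. The groups did not overlap for 9 of 9 genes, against 60% of all genes. The fitted fold was 4 or more past the test for 1 gene that rose, Ptgs2, and 4 that fell, Ptges, Ptger3, Ptgfr and Hpgd, where 4.78% and 6.65% of all genes had such fits. For Ptger3, Ptgfr and Hpgd the fit sets AC against values at background level, and the folds that can be read are at least 13.4, 1.71 and 3.27. The median log2 difference of the 9 genes was -1.16, against -0.10 over all genes. The call is an adjusted p under 0.05 from limma over all probe sets, and differences are DFAT cells minus AC on the log2 scale.

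Promoter sequences are shown for Ptgs2 and Ptger4, which rose, and for Ptger3 and Hpgd, which fell to background level, so that genes of both directions can be read side by side. Each is the 250 bases before 1 RefSeq transcription start of the gene, on its own strand in build GRCm38.p6. That start is not always the outermost one of the gene. Of the 10 genes 9 had a promoter window, Ptgs1 among them, and Ptgis had none. Capitals mark matches, on either strand, to the letters of 7 motifs. These were the TATA box TATAAA, the CRE core TGACGT, the GC box GGGCGG, the E-box CACGTG, the nuclear receptor core AGGTCA, the C/EBP letters TTGCNNAA and the NF-kB letters GGGA and CC with any 4 bases between them. The windows are chr1:150099781-150100030 on the plus strand for Ptgs2, chr15:5244188-5244437 on the minus strand for Ptger4, chr3:157566626-157566875 on the plus strand for Ptger3 and chr8:56294302-56294551 on the plus strand for Hpgd.
Ptgs2: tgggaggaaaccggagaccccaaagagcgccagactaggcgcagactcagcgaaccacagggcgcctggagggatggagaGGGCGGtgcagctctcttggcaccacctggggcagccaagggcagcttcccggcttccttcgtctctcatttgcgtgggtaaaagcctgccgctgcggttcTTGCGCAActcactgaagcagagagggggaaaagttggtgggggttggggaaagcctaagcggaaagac
Ptger4: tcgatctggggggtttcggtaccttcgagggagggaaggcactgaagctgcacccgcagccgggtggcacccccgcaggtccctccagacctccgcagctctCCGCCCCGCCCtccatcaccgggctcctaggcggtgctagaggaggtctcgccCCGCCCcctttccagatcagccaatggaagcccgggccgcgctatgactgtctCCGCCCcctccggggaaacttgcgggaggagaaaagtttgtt
Ptger3: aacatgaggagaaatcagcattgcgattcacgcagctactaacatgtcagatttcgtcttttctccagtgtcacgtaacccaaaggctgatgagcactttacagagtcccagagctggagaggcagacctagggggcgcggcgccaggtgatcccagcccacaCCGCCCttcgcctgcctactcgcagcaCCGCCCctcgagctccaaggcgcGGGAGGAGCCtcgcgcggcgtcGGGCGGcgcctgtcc
Hpgd: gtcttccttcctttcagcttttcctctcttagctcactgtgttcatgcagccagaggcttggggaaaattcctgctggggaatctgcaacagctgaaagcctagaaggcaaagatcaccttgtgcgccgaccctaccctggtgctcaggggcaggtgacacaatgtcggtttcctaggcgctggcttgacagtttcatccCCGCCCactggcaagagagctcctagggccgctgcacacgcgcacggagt
The Ptgs2 window held TTGCGCAA, a C/EBP match that reads the same on both strands, 69 bases before the start. Such a match was present in 9.57% of the 32817 promoter windows. Of the 9 windows only that of Ptgs2 had it, and it also had 1 GC box. The Ptger4 window held 4 GC box matches, 2 of which overlap by 1 base. The Ptger3 window held 3 GC boxes and the NF-kB letters GGGAGGAGCC, a match present in 17.6% of windows. The RefSeq gene Ptger3 begins at position 157566821, inside this window, so the window belongs to a later start of the gene. The NF-kB letters and the last GC box lie past that position. The Hpgd window held 1 GC box. The GC box was thus in windows of both directions, and it was present in 32.7% of all windows. The nuclear receptor core, present in 14% of all windows, was in that of Ptgfr alone among the 9. None of the 9 windows held the letters of the TATA box, the CRE core or the E-box, which were in 12.4%, 6.46% and 6.02% of all windows. Bases past the start used here, or further upstream, were not searched. The promoters may therefore hold these motifs outside the windows. A match of letters is a description of the sequence and was not tested as a binding site.

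The arrays were read with the following in view. The authors normalized them with RMA, and the medians lay between 4.92 and 5.11. The array of AC replicate 1 stood apart, with a Pearson correlation over probe sets of 0.969 to 0.971 with AC replicates 2 and 3. Between those it was 0.991, and among DFAT arrays 0.995 to 0.996. Of 11 adipocyte markers all fell in DFAT cells, and of 6 proliferation genes all rose. Over all genes 23.8% were called lower and 22.6% higher. The 18 macrophage markers had a mean of 6.57 on AC replicate 1 and of 8.24 and 8.36 on the other AC arrays, and the 17 endothelial markers had 9.55 against 7.82 and 7.72. In DFAT cells these means were 4.27 to 4.32 for macrophages and 4.51 to 4.53 for endothelium. There 15 of 18 and 12 of 17 markers were at background level. The test called 17 and 17 of them lower, against 23.8% of all genes. A background level was set for each array as the 95th percentile of 93 probe sets for genes of eye, ear, nose, tooth, sperm and oocyte, and it lay between 5.54 and 5.75. Values at or under it are described as at background level, which is not a detection call. In such bulk samples, fewer cells of a type and less RNA per cell cannot be told apart.

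**Figure D1:**
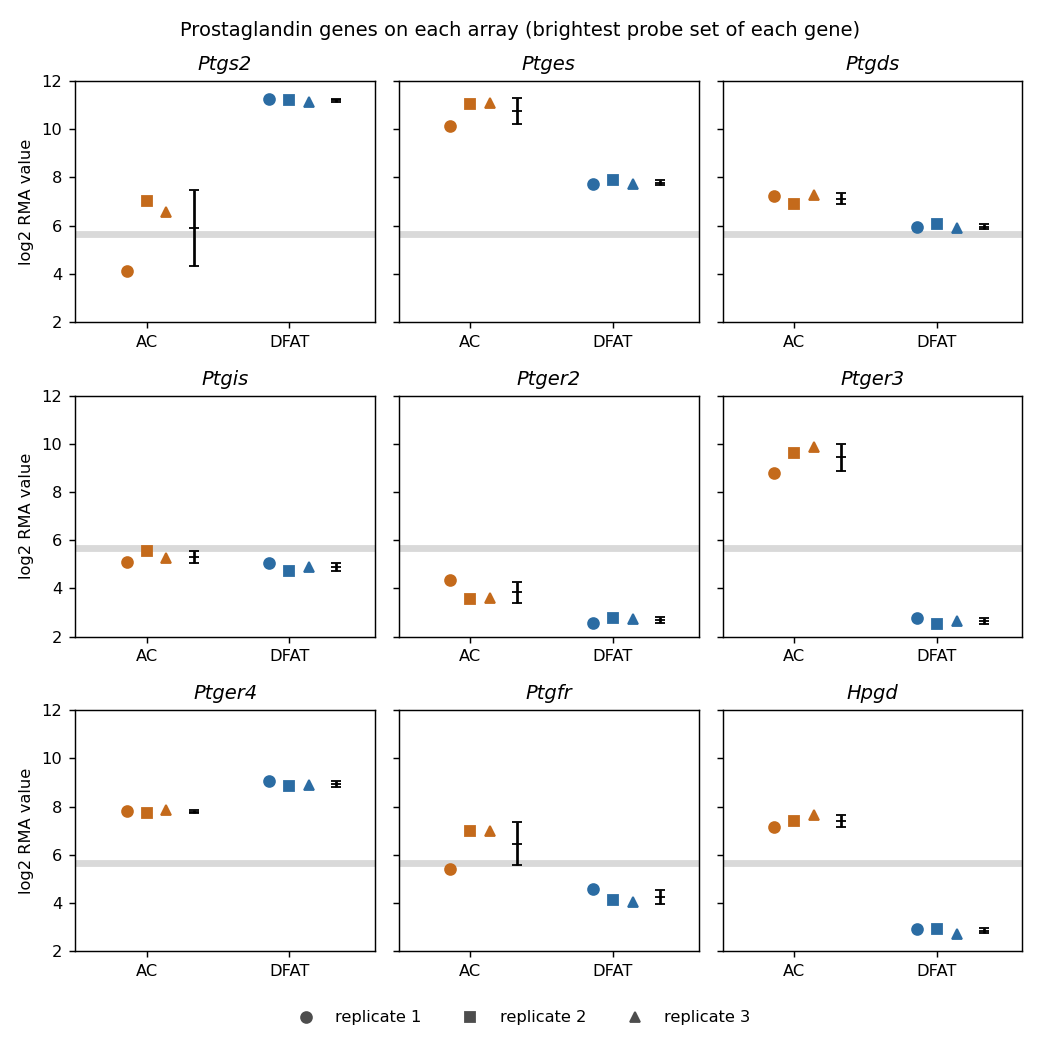
Log2 RMA values of the 9 measured prostaglandin genes on the 3 AC and 3 DFAT arrays, each gene by its brightest probe set. Each colored point is an array and each black bar a group mean with its SD, and the range of background levels, 5.54 to 5.75, is shaded in grey. Ptgs2 and Ptger4 are higher on all DFAT arrays, Ptger3 and Hpgd lie below the band on all of them, and the groups do not overlap for any of the 9 genes.

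Ptgs2 encodes cyclooxygenase-2, the inducible enzyme that commits arachidonic acid to prostaglandins. Its brightest probe set had log2 values of 4.12, 7.03 and 6.55 on the AC arrays and of 11.25, 11.20 and 11.14 on the DFAT arrays. The DFAT values were all high and close together, whereas AC replicate 1 lay under the background level and the other AC arrays above it. The difference was 5.29 ± 0.66 (SE, adjusted p = 0.000381 from limma), with a 95% confidence interval of 3.78 to 6.81, a 39.2-fold increase. That fold counts the AC replicate 1 value under the background level, and with this level as a floor the difference was 4.78. Without AC replicate 1 it was 4.40, or 21.2-fold (adjusted p = 4.55e-07 from limma). The other Ptgs2 probe set had 3.75, 4.54 and 4.27 in AC, all at background level, and 8.48, 8.20 and 8.56 in DFAT cells. Counted from the background level, this probe set was at least 7.01-fold higher in DFAT cells (adjusted p = 2.98e-06 from limma). Both probe sets thus gave the same direction, with no overlap of the groups.

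The AC value of Ptgs2 varied more than that of the other genes of the rule. AC replicate 1 was 2.67 log2 units below the average of both other AC arrays, a deviation larger in size than that of 99.7% of all genes. Its value lay under the background level of that array, so the full size of this deviation cannot be read. The macrophage markers were lower on the same array by 1.73 and the endothelial markers higher by 1.77. The part of other cells in the AC value of Ptgs2 was not tested. The increase in DFAT cells was present when each AC array was left out, at 4.40 to 5.86. In DFAT cells 15 of the 18 macrophage markers were at background level, among them the defining markers Adgre1 at 3.79 to 4.12 and Cd68 at 3.92 to 4.44. The other 3 were above it, Cd14, also a defining marker, at 6.75 to 6.82, Csf1r at 7.61 to 7.79 and Laptm5 at 5.82 to 6.24.

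Among the synthases, Ptges encodes microsomal prostaglandin E synthase-1, the inducible enzyme that works with cyclooxygenase-2. It had log2 values of 10.12, 11.04 and 11.08 in AC against 7.72, 7.91 and 7.74 in DFAT cells. It fell by 2.96 on the log2 scale (SE 0.26, adjusted p = 5.19e-05 from limma), a 7.77-fold decrease, and remained above the background level on all DFAT arrays. Its other probe sets fell as well, from a mean of 8.15 ± 0.32 (SD, n = 3) to 5.47 ± 0.10 (SD, n = 3) and from 7.75 ± 0.94 (SD, n = 3) to 5.56 ± 0.09 (SD, n = 3). Both reached background level in DFAT cells, so these falls are at least 5.48-fold and 4.16-fold. Ptges and Ptgs2 therefore moved in opposite directions on each of their probe sets.

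Ptgds encodes the lipocalin-type prostaglandin D synthase. Its brightest probe set had 7.21, 6.88 and 7.29 in AC against 5.93, 6.07 and 5.90 in DFAT cells, where it stayed just above the background level. It fell by 1.16 on the log2 scale (SE 0.15, adjusted p = 0.000532 from limma). This was a smaller decrease than that of Ptges, the other gene above the background level in both groups that fell, and it was -0.70 (adjusted p = 0.0502 from limma) with centring on hybridization controls. The other Ptgds probe set was at background level in both groups.

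Ptgis encodes prostacyclin synthase, which is known from endothelium and smooth muscle. It had 5.11, 5.56 and 5.25 in AC against 5.07, 4.73 and 4.90 in DFAT cells, above the background level on 1 AC array alone. The difference was -0.40 (95% confidence interval -0.79 to -0.02, adjusted p = 0.0944 from limma). Without AC replicate 1 it was -0.51 (adjusted p = 0.0287 from limma), and centred on the hybridization controls it was 0.06, so these values give no settled direction for Ptgis.

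Among the receptors, Ptger3 encodes EP3, which couples to inhibitory G proteins and opposes lipolysis in adipocytes. Its brightest probe set had 8.80, 9.63 and 9.88 in AC against 2.78, 2.52 and 2.67 in DFAT cells. It was thus high on every AC array and at background level on every DFAT array. The fitted difference was -6.78 ± 0.27 (SE, adjusted p = 7.14e-07 from limma), and counted from the background level Ptger3 was at least 13.4-fold lower. The other Ptger3 probe set, with means of 3.63 ± 0.18 in AC and 3.01 ± 0.20 in DFAT cells (SD, n = 3 each), lay under the background level throughout, so the fall rests on 1 probe set, whose name ending in _a_at marks probes shared by several transcripts of a gene.

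Ptger4 encodes EP4, which raises cyclic AMP, and it was the receptor of the rule that rose. It had 7.80, 7.72 and 7.84 in AC against 9.08, 8.85 and 8.89 in DFAT cells. The AC arrays lay close together, all below the DFAT arrays, and the rise of 1.15 ± 0.13 (SE, adjusted p = 0.00023 from limma), or 2.22-fold, was larger than the spread of either group. The other Ptger4 probe set had 4.90, 4.59 and 4.25 in AC, at background level, and 5.88, 6.16 and 5.98 in DFAT cells, and it was at least 1.32-fold higher (adjusted p = 0.000539 from limma).

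Ptger2 encodes EP2, the other receptor that raises cyclic AMP. Its values of 4.34, 3.55 and 3.62 in AC against 2.57, 2.78 and 2.75 in DFAT cells were all at background level. The test called it lower, at -1.14 (adjusted p = 0.00416 from limma), but the difference lies under the level at which a change can be read, and it was 0.09 with the background level as a floor.

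Ptgfr encodes the FP receptor for prostaglandin F2α. Its brightest probe set had 5.43, 7.0 and 6.98 in AC against 4.59, 4.12 and 4.05 in DFAT cells. AC replicate 1 was again low, under the background level, as were the DFAT arrays. Ptgfr fell by 2.22 on the log2 scale (SE 0.41, adjusted p = 0.00324 from limma), and counted from the background level it was at least 1.71-fold lower. All 5 probe sets of Ptgfr were called lower, by -1.02 to -2.81, and 2 of them were at background level in both groups. On AC replicate 1 Ptgfr was 1.56 below the average of both others, a larger deviation than in 97.7% of genes, and without that array its difference was -2.74. With values set to the background level the call was lost, at a difference of -0.85.

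Hpgd encodes 15-hydroxyprostaglandin dehydrogenase, which inactivates prostaglandins E2 and F2α. Its brightest probe set had 7.14, 7.42 and 7.64 in AC against 2.91, 2.94 and 2.73 in DFAT cells. The AC values were well above the background level and the DFAT values at it. The fitted difference was -4.54 ± 0.16 (SE, adjusted p = 4.73e-07 from limma), and Hpgd was at least 3.27-fold lower. That probe set ends in _s_at, which can also match transcripts of other genes. The other Hpgd probe set was at background level in both groups and did not pass the test, at -0.24 (95% confidence interval -0.61 to 0.14, adjusted p = 0.292 from limma). The fall of Hpgd thus rests on the _s_at probe set.

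**Figure D2:**
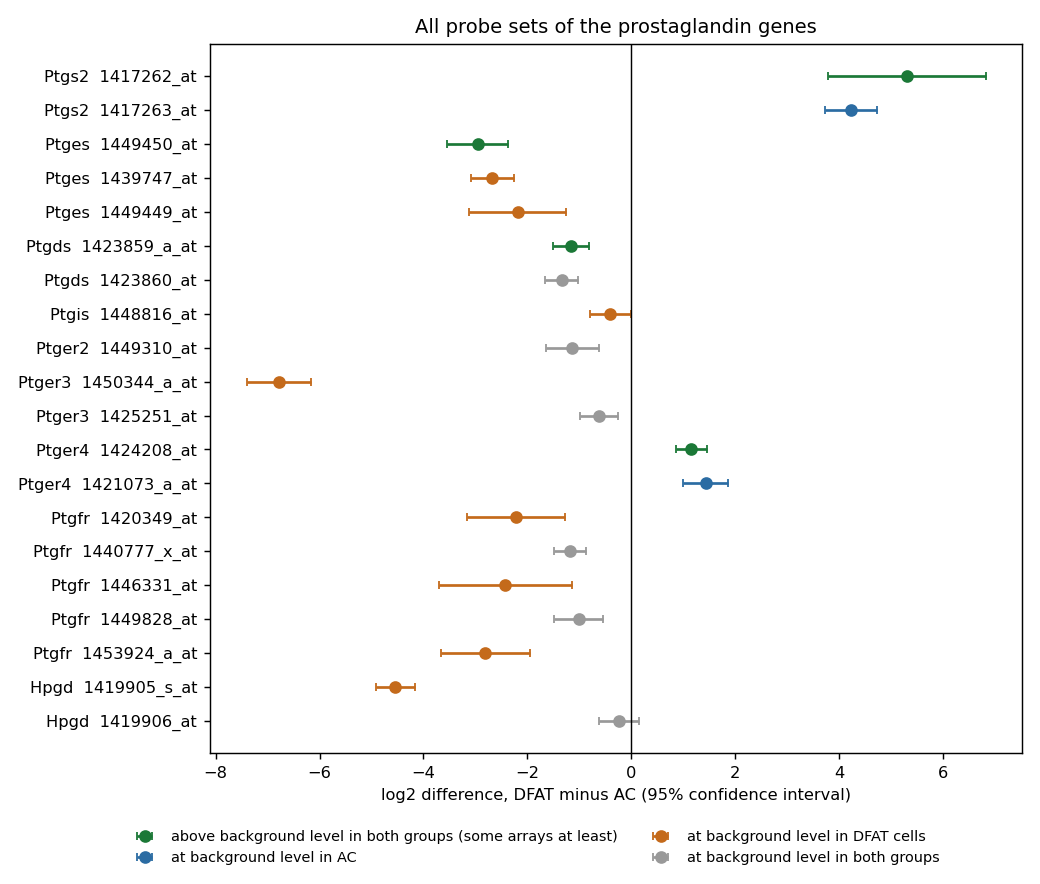
Log2 difference, DFAT cells minus AC, with its 95% confidence interval for each of the 20 probe sets of the 9 genes, colored by whether the groups were at background level. Both probe sets of Ptgs2 and both of Ptger4 lie to the right of 0, and the intervals of all 3 probe sets of Ptges and all 5 of Ptgfr lie to the left of it.

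Over all 20 probe sets, 4 were called higher, 14 lower and 2 did not pass the test, where 38.4% of all probe sets were called, 20.3% higher and 18.1% lower. The groups did not overlap for 19 of the 20, against 51.9% of all probe sets. A fitted rise of 4-fold or more past the test was found on both Ptgs2 probe sets, where 3.86% of all probe sets had one. Such a fitted fall was found on 8 probe sets, all 3 of Ptges, 3 of 5 of Ptgfr and 1 each of Ptger3 and Hpgd, against 4.45%. Counted from the background level, the falls of the 3 Ptgfr probe sets are at least 1.02-fold to 1.76-fold. Of those called, 5 were at background level in both groups and measure no readable change. In each gene with several probe sets their differences had the same sign, but for Ptgds, Ptger3 and Hpgd only the brightest lay above the background level on any array. Since each probe set binds its own sequence, levels were compared within a probe set only.

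The genes around the rule were counted from lists for the steps of the pathway. For the release and reuptake of arachidonic acid, 22 of 23 listed genes were measured, of which 2 rose, 7 fell and 13 did not pass the test, against 22.6% and 23.8% of all genes called higher and lower. The list had a median difference of -0.26. Pla2g4a, the cytosolic phospholipase A2 that prefers arachidonic acid, had log2 values of 5.40, 5.92 and 6.30 in AC against 9.83, 9.82 and 9.69 in DFAT cells, and it rose by 3.90 (adjusted p = 5.05e-06 from limma). Plaat3, the abundant phospholipase A2 of adipocytes also called AdPLA, had 13.04, 13.14 and 13.17 in AC against 9.83, 9.77 and 9.71 in DFAT cells, and it fell by 3.35 (adjusted p = 5.16e-07 from limma). These phospholipases thus moved in opposite directions, and for neither gene did the groups overlap. Mgll, the monoglyceride lipase, fell by 7.50 to background level, at least 96.2-fold (adjusted p = 6.23e-08 from limma). Pla2g7, which inactivates platelet-activating factor and is known from macrophages, fell by 2.74 to background level, at least 1.23-fold. Its AC values were 5.12 on replicate 1 and 6.44 and 6.40 on the others, and the macrophage mean was also lowest on replicate 1. The part of macrophages in it was not tested.

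Of the other synthases, 6 of 8 were measured, of which 1 rose, 2 fell and 3 did not pass the test, beside 22.6% higher and 23.8% lower over all genes. Prxl2b, a prostaglandin F synthase of the peroxiredoxin-like family, had a mean of 10.74 ± 0.35 in AC and of 4.33 ± 0.38 in DFAT cells (SD, n = 3 each), at background level on every DFAT array. It fell by 6.41, at least 33.1-fold counted from the background level (adjusted p = 5.99e-07 from limma). Cbr1, a carbonyl reductase that can turn prostaglandin E2 into F2α, fell by 2.22 (adjusted p = 7.45e-06 from limma), and Akr1b8, an aldo-keto reductase, rose by 0.71 (adjusted p = 0.0472 from limma), a call lost with centring on reference genes. Ptges2, a constitutive prostaglandin E synthase, did not pass the test, at 8.34 ± 0.18 in AC and 8.03 ± 0.23 in DFAT cells (SD, n = 3 each). Hpgds, the hematopoietic prostaglandin D synthase, and Tbxas1, the thromboxane synthase, were at background level in both groups.

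Of the 5 other prostanoid receptors, 2 rose, none fell and 3 did not pass the test, with the same 22.6% and 23.8% of all genes for comparison. Ptgir, the prostacyclin receptor, which raises cyclic AMP as EP4 does, had 4.45, 4.32 and 4.69 in AC, at background level, and 7.89, 7.54 and 7.59 in DFAT cells. It was at least 4.20-fold higher (adjusted p = 2.68e-06 from limma). Its ligand's synthase Ptgis, described above, was near or at background level. Ptger1, which encodes EP1, rose by 0.54 from background level in AC to values just around it in DFAT cells (adjusted p = 0.0353 from limma), and the call was lost with centring on reference genes. Ptgdr and Ptgdr2, the receptors of prostaglandin D2, were at background level in both groups.

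All 6 genes for transport and breakdown were measured, of which 3 rose, 2 fell and 1 did not pass the test, where 46.4% of all genes were called, 22.6% higher and 23.8% lower. Abcc4, which exports prostaglandin E2, had 6.76, 6.02 and 6.22 in AC against 9.28, 9.23 and 9.28 in DFAT cells, and it rose by 2.93 (adjusted p = 1.29e-05 from limma). Slco2a1, the importer that brings prostaglandins to Hpgd, did not pass the test, at -0.51 (adjusted p = 0.101 from limma). Ptgr1 and Ptgr2, reductases that act on the products of Hpgd, moved in opposite directions, by 2.06 and -2.79 (adjusted p = 0.000619 and 2.35e-06 from limma). Cbr3, a carbonyl reductase related to Cbr1, rose by 3.67 (adjusted p = 5.16e-07 from limma). Akr1c18, a hydroxysteroid dehydrogenase of the aldo-keto reductase family, was the other gene that fell, with a difference of -1.80 and DFAT cells at background level (at least 1.89-fold lower, adjusted p = 0.00373 from limma).

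Of the lipoxygenase and leukotriene genes, 13 of 14 were measured, of which 1 rose, 4 were called lower and 8 did not pass the test, so that 5 of 13 were called against 46.4% of all genes. Ltc4s, the leukotriene C4 synthase, had 10.07, 10.14 and 10.51 in AC against 5.46, 5.39 and 4.50 in DFAT cells, at background level, a fall of 5.12 and at least 23.4-fold (adjusted p = 3.19e-06 from limma). Alox5ap, the activating protein of 5-lipoxygenase, fell by 2.40 to background level, at least 2.26-fold (adjusted p = 0.000877 from limma). On the AC arrays Alox5ap had 6.02 on replicate 1 and 7.26 and 7.33 on the others, in the same order as the macrophage markers, whose part in it was not tested. Lta4h, the leukotriene A4 hydrolase, rose by 0.73 (adjusted p = 0.00169 from limma). Aloxe3, a lipoxygenase of skin, fell by 0.62 (adjusted p = 0.0124 from limma), a call lost with centring on hybridization controls. Alox5, the 5-lipoxygenase itself, did not pass the test, at -0.38 (adjusted p = 0.0593 from limma). Of the 13 genes 7 were at background level in both groups, among them Cysltr1, the remaining gene called lower (-0.54, adjusted p = 0.0417 from limma). Its call was lost with centring on array medians or hybridization controls, with quantile normalization, with the replicate block and without AC replicate 1 (adjusted p = 0.0588 to 0.831 from limma).

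**Figure D3:**
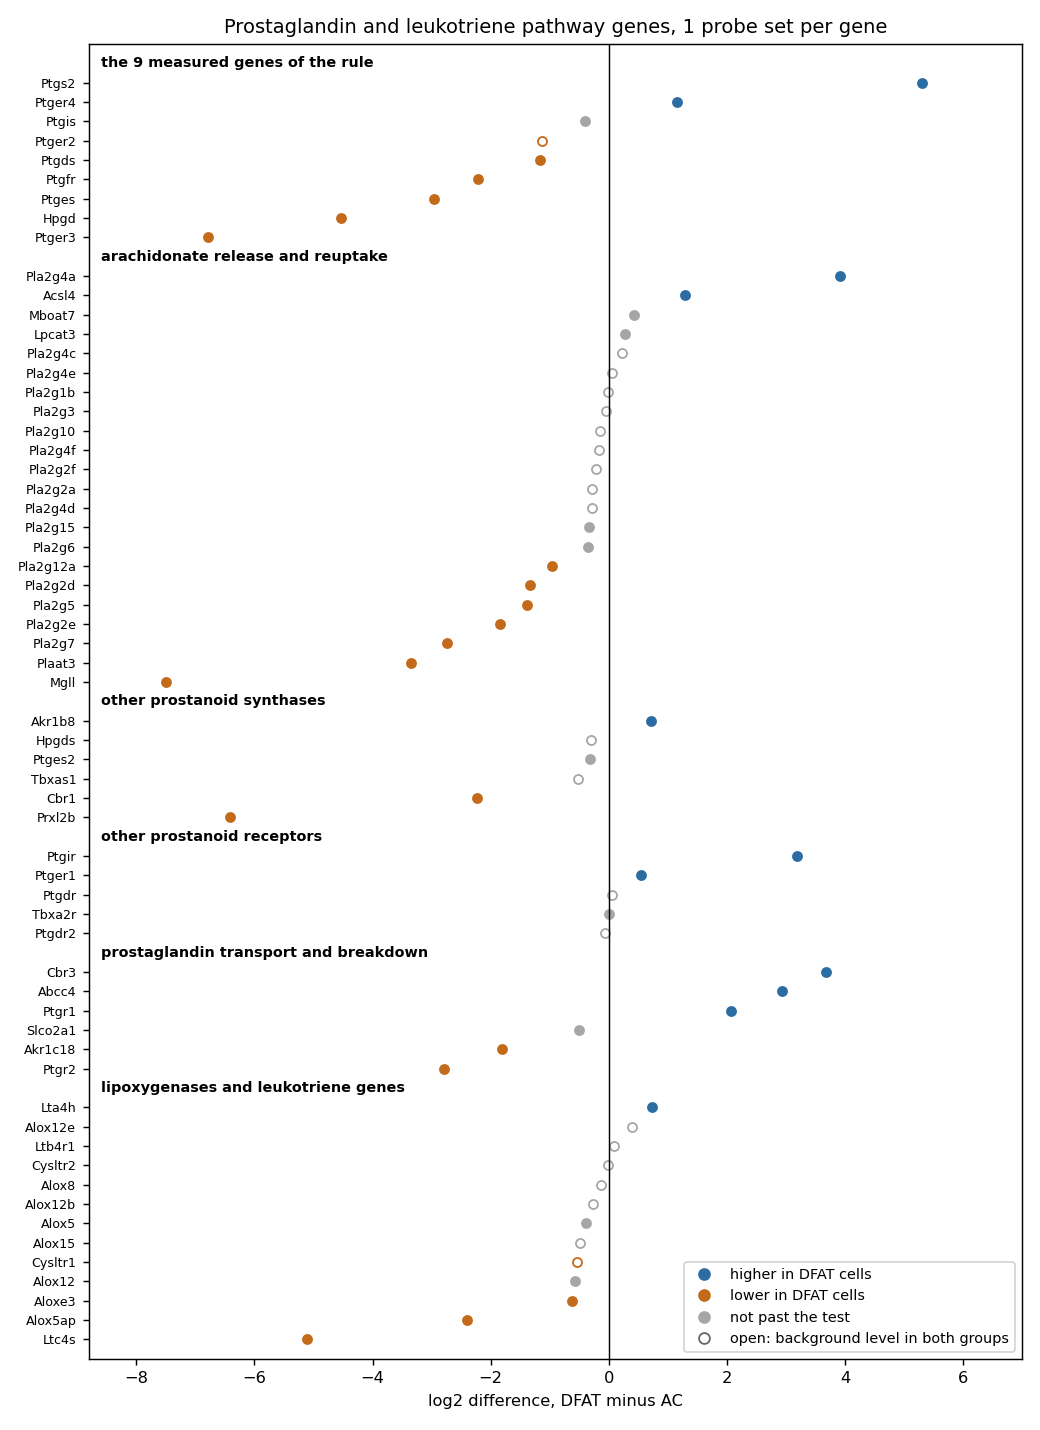
Log2 difference, DFAT cells minus AC, of the 9 measured genes of the rule and 52 other genes of the pathway, grouped by step, with 1 probe set per gene. Filled points lie above the background level on at least 1 array, open points at background level on all 6 arrays, and grey points did not pass the test. Pla2g4a, Ptgs2, Ptgir and Abcc4 lie to the right of 0, and Mgll, Plaat3, Prxl2b, Ptger3, Hpgd and Ltc4s to the left.

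The genes whose pattern over the 6 arrays was most like that of Ptgs2 and Ptger3 were found by the Euclidean distance between values centred on each gene's mean. For Ptgs2 they were Fgf7, a fibroblast growth factor, Mthfd2, a mitochondrial folate enzyme, and Dck, a deoxynucleoside kinase, at distances of 0.81, 1.13 and 1.32, where the median over all genes was 6.97. For Ptger3 they were Acaa1b, a peroxisomal thiolase, the cytokine Il6, and Sucnr1, the succinate receptor, at 0.35, 0.41 and 0.48, where the median was 8.23. Fgf7 had 4.59, 6.45 and 6.41 in AC, low on replicate 1 like Ptgs2, and 11.06, 10.81 and 11.15 in DFAT cells. Il6 had 11.31, 12.13 and 12.39 in AC against 5.41, 5.18 and 4.81 in DFAT cells. With 6 arrays in 2 groups, this likeness mostly reflects a difference of the same size between the groups.

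**Figure D4:**
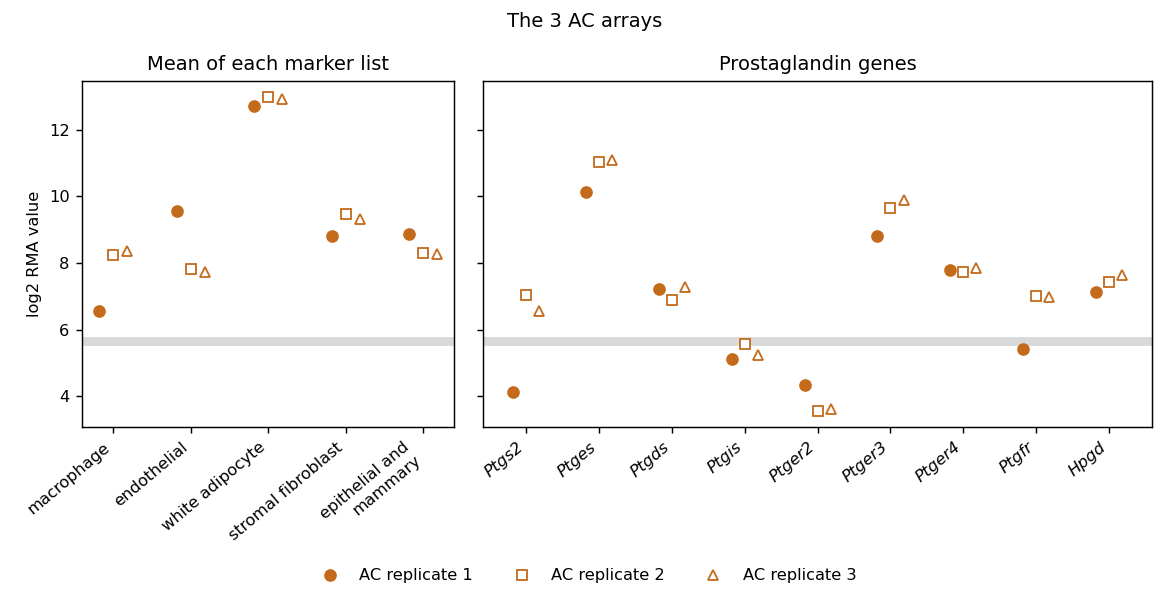
Log2 RMA values on the 3 AC arrays. The left panel shows the mean of 5 marker lists and the right panel the 9 prostaglandin genes, with AC replicate 1 as filled circles and the grey band for the background level. Ptgs2 and Ptgfr lie under the band on AC replicate 1 and above it on the other AC arrays, the macrophage mean is lower and the endothelial mean higher on replicate 1, and Ptger4 and Ptgds vary little.

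The genes of the rule fell into different classes by how they varied among AC. Ptgs2, Ptgfr, Ptger3 and Ptges were lower on AC replicate 1 than on both other AC arrays. From the mean of these the deviations were 2.67, 1.56, 0.95 and 0.94. Those of Ptger3 and Ptges were larger in size than in 91.6% and 91.2% of genes. The list means of adipocyte, stromal fibroblast and macrophage markers were lower on replicate 1 by 0.24, 0.58 and 1.73. The endothelial mean was higher by 1.77. Such means over many genes cannot be set beside the deviation of 1 gene. Ptger2 was higher on replicate 1 by 0.76, at background level. Ptgds and Ptger4 differed by 0.13 and 0.02, which is within the spread of the other arrays. Hpgd was lower by 0.40. Markers of mast cells, another known source of prostaglandin D2, were at background level in AC for 6 of 9 genes. The exceptions in AC were Cma1 at 6.52 to 6.67, Kit at 6.29 to 6.40 and Hdc at 5.29 to 5.67. The mean of the 9 was 4.89 on replicate 1 and 4.98 and 5.10 on the others. In DFAT cells all 9 were at background level, and 6 were called lower, against 23.8% of all genes. Of mesothelial markers 6 of 6 were at background level in both groups, and of 6 lymphocyte markers 5 were in AC and 6 in DFAT cells. The 9 smooth muscle and pericyte markers had a mean of 8.47, 7.99 and 8.18 in AC and of 6.83 to 6.90 in DFAT cells, where 3 were called higher and 6 lower. The 15 epithelial and mammary markers had a mean of 8.88, 8.30 and 8.27 in AC and of 4.51 to 4.69 in DFAT cells, and 13 were called lower. For these marker calls, 22.6% of all genes were called higher and 23.8% lower. The part of these cell types in the AC values of the prostaglandin genes was not tested.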

How the data were processed

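Total RNA of 3 AC and 3 DFAT samples was labelled with biotin and hybridized to Affymetrix GeneChip mouse genome arrays. The values deposited by the authors are on the log2 scale after RMA in the Bioconductor package affy (version not given in the sources used here), which corrects the background, equalizes the arrays and summarizes each probe set. Depth has no meaning for arrays, and their number limits the precision. The labels do not say whether replicates came from separate animals or cultures, so the spread behind the p-values may be technical and is that between these samples alone.

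Samples were grouped by title. After removal of 64 control probe sets, 45037 were tested. The annotation gives 1 gene symbol for 34945 of them, several for 932, which were left unnamed, and none for 9160. The fit over all probe sets used lmFit and eBayes of limma 3.58.1 under R 4.3.3 (two-sided, Benjamini-Hochberg adjusted p under 0.05), without a filter, a step tested on simulated data. Each gene was represented by its brightest probe set over the 6 arrays. "At least" folds set the dimmer group's values to the array's background level. From each pathway list, the text names up to 4 genes called without overlap that had the largest differences, and others were named after their values were seen. The genes, lists and alternatives were chosen with earlier results of these data known. Alternatives were other normalization, centring on the array median, 11 reference genes or 18 hybridization control probe sets, and a floor at the background level. Others were a filter on dim probe sets, other variance models, array weights and the replicate number as a block. A Student test per probe set, which the methods do not state for the arrays, and the methods' 4-fold rule were also tried. So were other choices of probe set, and leaving out each array. An exact permutation test of 3 against 3 cannot go below 0.1 and was not used. Promoters came from a RefSeq table of GRCm38.p6. Python 3.11.15 with pandas 2.3.3 and matplotlib 3.10.9 made tables and figures.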

Additional observations from a re-analysis of the deposited data

How the results depend on the processing

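In every alternative tried Ptgs2, Ptges and Ptger4 kept their direction and, apart from Ptger4 under the 4-fold rule, their call. So did Ptger3 by its brightest probe set, but with its plain _at probe set it was -0.62, from values at background level in both groups, which measure no readable change. Over all probe sets 9152 were called higher and 8133 lower. Centring on the hybridization controls gave 12442 and 3405, on the reference genes 7113 and 14261, and on array medians 10782 and 6338. Their median difference was -0.06, 0.40, -0.29 and 0.07 in that order. By the authors' 4-fold rule without a test, which called 8.31% of all probe sets, 1 prostaglandin gene was higher and 4 lower, in place of 2 and 6. Of the other pathway genes 5 were higher and 8 lower, in place of 9 and 15. Centred on the reference genes, 6 other pathway genes were higher and 25 lower, and centred on the hybridization controls 13 were higher and 11 lower. Ptgis was 0.0583 with the hybridization controls and 0.0805 with values set to the background level, and Ptger2 was 0.0896 in the latter. The cause was not tested. The call of Ptgfr was lost with the Student test per probe set (adjusted p = 0.0511). It was also lost with values set to the background level or to the lower floor. The call of Hpgd was lost with its plain _at probe set (-0.24). Leaving out single arrays gave 2 genes of the rule higher each time and 6 to 7 lower, and 6 to 11 other pathway genes higher and 12 to 18 lower.

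With the replicate number as a block, 2 genes of the rule were higher and 6 lower, and 9 other pathway genes were higher and 15 lower, the counts without it, but Cysltr1 lost its call (adjusted p = 0.0643 from limma) and Tbxas1 gained one (adjusted p = 0.0394 from limma). Nothing in the labels says whether same-numbered samples are paired. The deviations of same-numbered arrays correlated at -0.02, -0.03 and 0.01 over probe sets, which with 3 arrays per group cannot decide it.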
